A study of Homo sapiens with 6 samples.

Results

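The BCL2 family decides whether the outer membrane of mitochondria stays closed or is opened to start apoptosis. The genes described here are 10 of its members, taken by their symbols BCL2, BCL2L1, MCL1, BAX, BAK1, BID, BAD, BCL2L11, BBC3 and PMAIP1, out of 23062 identifiers listed for each library. All 10 were listed. BCL2, BCL2L1 and MCL1 encode pro-survival proteins (BCL2, BCL-XL and MCL1). BAX and BAK1 encode the effectors that open the membrane, and BID, BAD, BCL2L11, BBC3 and PMAIP1 encode BH3-only proteins (BID, BAD, BIM, PUMA and NOXA) that activate the effectors or occupy the pro-survival proteins. The members act through binding between proteins, and several are controlled by phosphorylation, cleavage or degradation, none of which is seen in RNA levels.

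RNA was sequenced from DU145 cells, a human prostate cancer line from a brain metastasis that does not depend on androgen and is labelled wild type. The control group had 3 cultures kept in MEM medium for 48 h, and the other group had 3 cultures treated for 48 h with taraxasterol (TAX), a plant triterpene, at 56 µM, the IC50 of these cells. TAX was dissolved in DMSO, and whether control cultures received DMSO is not stated, so solvent and TAX cannot be told apart. It is also not stated whether the cultures were grown separately, so p-values measure the spread between these libraries only. As background, DU145 cells carry mutant p53 and are known to lack BAX protein.

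Values are FPKM, fragments scaled by the length of the gene and by the size of the library, and their sums were 322483 to 363724 per library. Depth is unknown, since no counts were used and low values did not fall in steps of whole reads. The epithelial markers KRT8, KRT18, KRT19, EPCAM and CDH1 summed to 428 to 546 FPKM in control and 555 to 606 FPKM in TAX libraries. KLK3 and TMPRSS2, genes of luminal prostate cells, were under 0.1 FPKM in every library. Of the markers of fibroblasts, endothelium and leukocytes only COL1A1 and CD68 exceeded 0.1 FPKM. COL1A1 had 2.00 ± 0.0947 FPKM in the control group against 1.44 ± 0.0285 FPKM in the TAX group, and CD68, which many cells use in lysosomes, had 23.4 ± 3.34 and 33.0 ± 0.483 FPKM (SD, n = 3). The summed epithelial markers and CD68 were higher in every TAX library, as were 14.6% of all tested genes. Singly, KRT18, KRT19 and EPCAM were higher in every TAX library, while KRT8 and CDH1 overlapped. CDH1 was lower on average in the TAX group, at 47.5 ± 4.18 FPKM against 54.15 ± 13.07 FPKM in control (SD, n = 3). The part of these markers in the results below was not tested.

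DU145 cells expressed 9 of the 10 members well enough to be tested, and the level of BCL2 itself was near 0. The members were far apart in level and spanned from 224 FPKM for MCL1 to 0.168 FPKM for BCL2 as means over the 6 libraries. MCL1 alone made up 51.8% to 56% of the summed FPKM of the members, and BCL2L1 15.6% to 18.6%. MCL1 stood above 98.7% of the 12359 tested genes in mean FPKM and BBC3 above 8.67%. In the order of mean FPKM MCL1 was followed by BCL2L1 (69.9), PMAIP1 (31.9), BID (27.6), BAD (20.1), BAX (17.8), BCL2L11 (11.8), BAK1 (10.0), BBC3 (1.68) and BCL2. Neighbours overlapped between libraries for PMAIP1 and BID, for BAD and BAX, for BAX and BCL2L11 and for BCL2L11 and BAK1. Within a library BAD was above BAX in 6 of 6 cases, whereas PMAIP1 was above BID in 3 of 6. A level per gene does not divide splice forms, such as BCL-XL and the pro-apoptotic BCL-XS of BCL2L1.

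**Figure D1:**
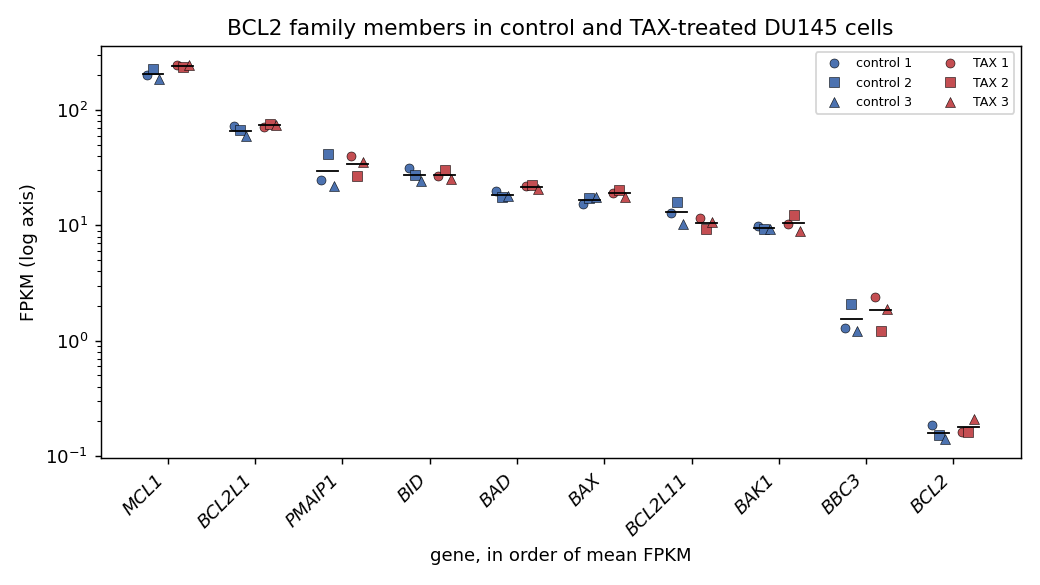
FPKM of the 10 members (log axis) in each of the 3 control (blue) and 3 TAX (red) libraries, with the group mean as a bar and the marker shape for the replicate number. MCL1 lies at 186 to 248 FPKM and BCL2 at 0.139 to 0.209 FPKM, and the groups overlap for all members but MCL1 and BAD.

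To see what TAX did to these genes, the groups were compared with limma on log2(FPKM + 1), a scale that understates the change of low genes. None of the 9 tested members passed an adjusted p under 0.05 (limma, Benjamini-Hochberg over 12359 genes; 0.477% of all tested genes did, 0.316% higher and 0.162% lower), with adjusted p from 0.411 to 0.997. At an unadjusted p under 0.05 in limma, the level used in the study's methods, 2 members were higher in TAX-treated cells, MCL1 and BAD, and 0 were lower, where 10.1% of all tested genes had such a p in either direction, 7.73% higher and 2.41% lower. Of the 9 members 8 had a log2 fold change above 0, where 69.1% of all tested genes did. Their median log2 fold change was 0.16, beside 0.054 for all tested genes. After quantile normalization and after centring each library on its median it was 0.10 in both cases, with 7 of the 9 members above 0. The groups did not overlap for MCL1 and BAD, both higher, beside 14.6% of tested genes higher without overlap. With each library centred on its median, 1 member was higher (MCL1) and 1 lower (BCL2L11) at an unadjusted p under 0.05 in limma. Of all 12359 tested genes 1497 had such a p in either direction after centring, instead of 1253. The share of all tested genes above 0 was then 48.7%. Adjusted calls over all genes were 46 higher and 50 lower instead of 39 and 20. In bulk RNA, fewer cells with a transcript and less of it per cell cannot be told apart.

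**Figure D2:**
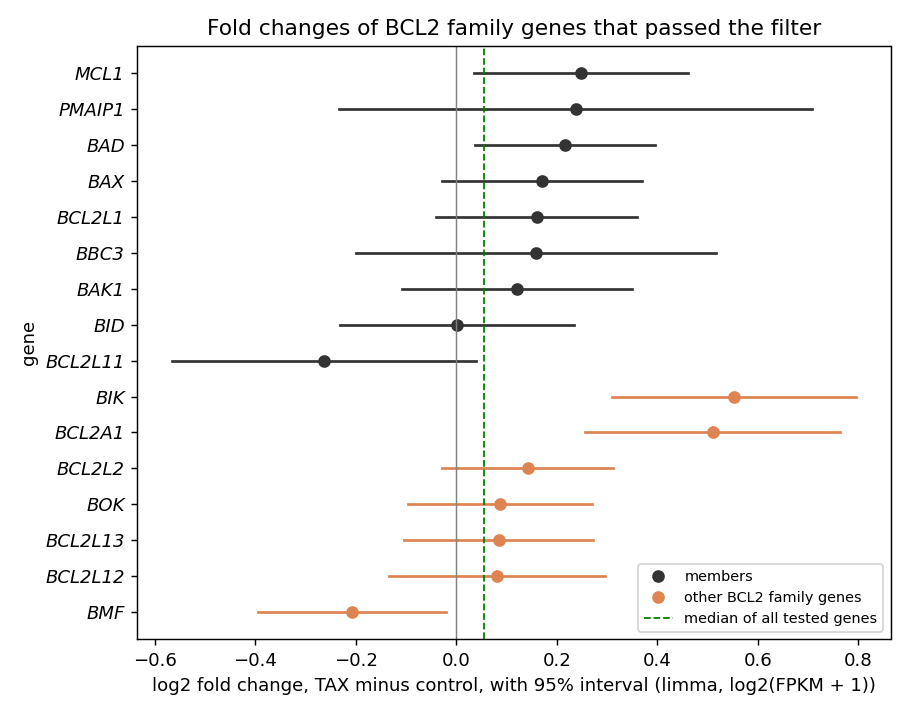
Log2 fold change (TAX minus control, limma on log2(FPKM + 1), n = 3 each) with its 95% interval for the 9 tested members (black) and 7 tested genes of the family outside the list (orange), with the median of all tested genes (0.054) as a dashed line. The intervals of MCL1 and BAD lie above 0, as do those of BIK and BCL2A1, and that of BMF lies below 0.

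Among the pro-survival genes, MCL1, on chromosome 1 from 150574551 to 150579738 in GENCODE 29 (GRCh38), encodes a short-lived protein that restrains BAK1 and BIM. Its level was 201, 229 and 186 FPKM in the control libraries and 245, 237 and 248 FPKM in the TAX libraries, given here and throughout in the order of the replicate numbers. Every TAX library was above every control library, and the TAX libraries lay closer together. The means were 205 ± 21.6 and 243 ± 5.51 FPKM (SD, n = 3), a ratio of 1.19. The log2 fold change of MCL1 was 0.25 with a standard error (SE) of 0.096 (limma adjusted p = 0.429, unadjusted p = 0.0264). An exact two-sided permutation test gave p = 0.1, the smallest that 3 against 3 libraries allow. Without control replicate 1, TAX replicate 1 or TAX replicate 3 the unadjusted p of MCL1 in limma was no longer under 0.05, reaching at most 0.0870 in these fits.

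BCL2L1, the gene of BCL-XL on chromosome 20 from 31664452 to 31723989, had 72.3, 66.7 and 59.4 FPKM in the control and 71.4, 76.0 and 73.8 FPKM in the TAX libraries. Control replicate 1 lay within the TAX range, so the groups overlapped. BCL2L1 had a log2 fold change of 0.16 with a 95% interval from -0.041 to 0.36 (limma adjusted p = 0.569), and 0.086 without control replicate 3. BCL2, the founding gene of the family on chromosome 18 from 63123346 to 63320128, had 0.185, 0.151 and 0.139 FPKM in the control and 0.160, 0.162 and 0.209 FPKM in the TAX libraries. It stayed under the filter of 1 FPKM in 3 libraries. Added to the fit, BCL2 had a log2 fold change of 0.023 (95% interval -0.15 to 0.19, limma adjusted p = 0.935), on a scale that leaves little room for change at this level.

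The effectors did not pass the test in either direction. BAX, on chromosome 19 from 48954815 to 48961798, had 15.2, 17.4 and 17.6 FPKM in the control and 19.0, 20.3 and 17.5 FPKM in the TAX libraries, so its RNA was present in a line known to lack the protein. The TAX libraries reached higher, but TAX replicate 3 lay just under control replicate 3. BAX had a log2 fold change of 0.17 (95% interval -0.028 to 0.37, limma adjusted p = 0.543), and 0.11 without control replicate 1. BAK1, on chromosome 6 from 33572547 to 33580293, had 9.89, 9.29 and 9.38 FPKM in the control and 10.3, 12.2 and 9.00 FPKM in the TAX libraries, and the lowest and the highest value were both in the TAX group. BAK1 had a log2 fold change of 0.12 (95% interval -0.11 to 0.35, limma adjusted p = 0.702), which was 0.016 without TAX replicate 2 and 0.22 without TAX replicate 3. BAK1 has the pseudogenes BAK1P1 and BAK1P2, with which it can share reads.

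Of the BH3-only genes BAD had the smallest p of all members. BAD binds BCL-XL and BCL2 and, as background, is held inactive when AKT phosphorylates it, the kinase whose pathway the study follows. BAD lies on chromosome 11 from 64269830 to 64284704 and had 19.9, 17.6 and 18.0 FPKM in the control and 21.8, 22.5 and 20.8 FPKM in the TAX libraries. All 3 TAX values were above all 3 control values. The means were 18.5 ± 1.24 and 21.7 ± 0.866 FPKM (SD, n = 3), with a log2 fold change of 0.22 (SE 0.081, limma adjusted p = 0.411, unadjusted p = 0.0223). BAD overlaps GPR137 on the opposite strand, and since the strand setting of the quantification is not given, their shared reads are of uncertain origin. GPR137 had 16.1 ± 1.21 FPKM in the control group against 15.8 ± 1.90 FPKM in the TAX group (SD, n = 3). Other members overlap non-coding genes, among them MCL1 with ADAMTSL4-AS1 on the same strand and BCL2L11 with MIR4435-2HG on the opposite strand. The origin of reads shared there is uncertain too. The unadjusted p of BAD in limma was above 0.05, at most 0.0799, without control replicate 2, TAX replicate 1 or TAX replicate 2, and after quantile normalization or centring of each library.

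BCL2L11, the gene of BIM, which binds all pro-survival proteins and can activate BAX and BAK1, was the one tested member with a log2 fold change below 0. It lies on chromosome 2 from 111119378 to 111168447 and had 12.7, 16.1 and 10.4 FPKM in the control and 11.7, 9.39 and 10.7 FPKM in the TAX libraries. Control replicate 2 was the highest library, and control replicate 3 lay inside the TAX range. The log2 fold change of BCL2L11 was -0.26 (SE 0.14, 95% interval -0.57 to 0.040, limma adjusted p = 0.542). Without control replicate 2 it was -0.11, and without control replicate 3 it was -0.41. BID, which caspase-8 cleaves to link death receptors to mitochondria, lies on chromosome 22 from 17734138 to 17774770. It had 31.3, 27.2 and 24.3 FPKM in the control and 27.1, 30.2 and 25.4 FPKM in the TAX libraries. All TAX values of BID lay within the control range, and its log2 fold change was 0.0016 (95% interval -0.23 to 0.23, limma adjusted p = 0.997).

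PMAIP1 and BBC3, the genes of NOXA and PUMA, are known targets of p53, and PMAIP1 is also raised by ATF4 in stressed cells. Their values varied more within groups than between them. PMAIP1, on chromosome 18 from 59899948 to 59904306, had 24.6, 41.9 and 22.2 FPKM in the control and 40.1, 26.7 and 35.7 FPKM in the TAX libraries. BBC3, on chromosome 19 from 47220822 to 47232766, had 1.30, 2.08 and 1.22 FPKM in the control and 2.39, 1.22 and 1.89 FPKM in the TAX libraries. For both genes the highest 3 libraries were control replicate 2, TAX replicate 1 and TAX replicate 3, and no other tested member had this order. Among all tested genes 13.0% did. The log2 fold change of PMAIP1 was 0.24 (95% interval -0.23 to 0.71, limma adjusted p = 0.715), and that of BBC3 was 0.16 (95% interval -0.20 to 0.52, limma adjusted p = 0.757). Without control replicate 2 these values were 0.51, with an unadjusted p of 0.00654 and an adjusted p of 0.239 in limma, and 0.31, and without control replicate 3 they were 0.066 and 0.072.

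The same 3 libraries were the highest for DDIT3, the gene of the stress factor CHOP, which was looked at after its values were seen. DDIT3 had 26.9, 66.0 and 21.6 FPKM in the control and 49.5, 23.4 and 44.0 FPKM in the TAX libraries, so that control replicate 2 exceeded every TAX library. ATF4, which acts upstream of DDIT3, also had its highest values in these 3 libraries, with 200, 212 and 152 FPKM in the control and 223, 211 and 221 FPKM in the TAX libraries, but control replicate 2 and TAX replicate 2 were nearly level. GADD45A and SESN2, stress genes of the list of other p53 targets, had this order too, and both were highest in TAX replicate 1, at 43.1 and 18.0 FPKM, and lowest in control replicate 3, at 20.8 and 7.38 FPKM. This order was not particular to stress genes, since 13.0% of all tested genes had it. It was also held by 5 of 13 genes of the apoptosome, caspases and inhibitors and 4 of 19 protein regulators of the members. Of 10 tested transcription factors known to act on the members 4 had it, DDIT3 and ATF4 included. Among 12 other p53 targets 4 did, GADD45A and SESN2 included, and among 8 genes upstream of BID 2 did. Of the 8 tested outer membrane partners 2 had it, and of the 7 tested family genes outside the list 0 did. What sets control replicate 2, TAX replicate 1 and TAX replicate 3 apart was not tested, and the labels give no batch.

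**Figure D3:**
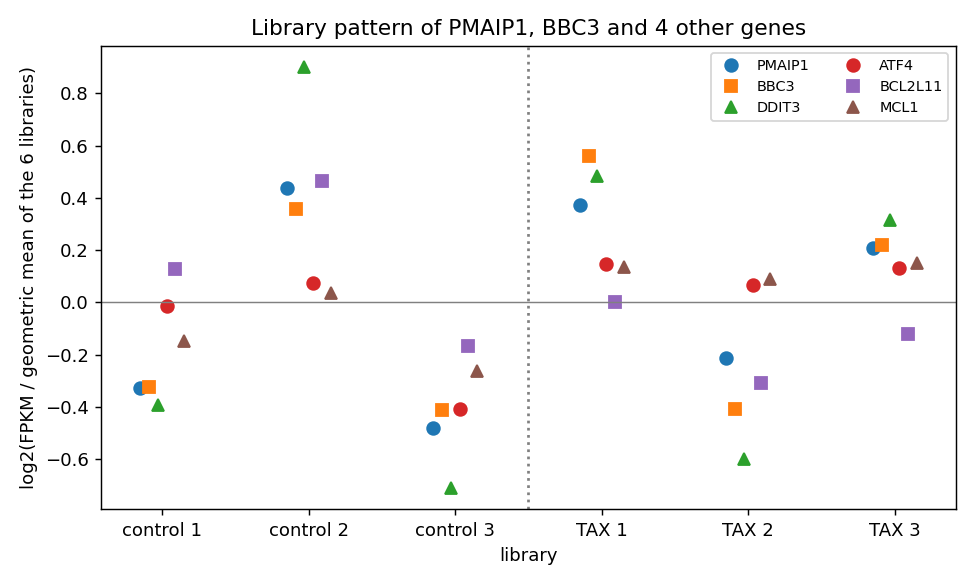
Level of 6 genes in each library, as log2 of FPKM over the geometric mean of the 6 libraries (control replicates left of the dotted line, TAX replicates right). PMAIP1, BBC3 and DDIT3 lie above 0 in control replicate 2 and TAX replicates 1 and 3 and below 0 in the other 3 libraries.

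Promoter sequences were taken from RefSeq (GRCh38.p14) for the pair that varied together and for BCL2L11, the tested member with a log2 fold change below 0. Of the 10 members 9 had an entry, and MCL1 had none. The stretch up to 250 bases before the annotated start is shown, without bases that GENCODE 29 places in an exon. It is given 5′ to 3′ on the strand of the gene, with the letters that match a searched motif in capitals. For BCL2L11 the RefSeq start lies inside the gene as GENCODE 29 places it, and so does the stretch shown.
PMAIP1 (chr18:59899746-59899947, plus strand): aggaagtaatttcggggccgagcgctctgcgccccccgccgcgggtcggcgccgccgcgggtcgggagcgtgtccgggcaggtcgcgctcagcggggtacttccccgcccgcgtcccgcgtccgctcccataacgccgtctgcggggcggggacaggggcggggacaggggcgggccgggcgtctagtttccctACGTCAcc
BBC3 (chr19:47232767-47232917, minus strand): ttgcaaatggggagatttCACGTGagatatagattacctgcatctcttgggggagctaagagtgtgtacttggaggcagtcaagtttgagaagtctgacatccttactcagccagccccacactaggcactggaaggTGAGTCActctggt
BCL2L11 (chr2:111120664-111120913, plus strand): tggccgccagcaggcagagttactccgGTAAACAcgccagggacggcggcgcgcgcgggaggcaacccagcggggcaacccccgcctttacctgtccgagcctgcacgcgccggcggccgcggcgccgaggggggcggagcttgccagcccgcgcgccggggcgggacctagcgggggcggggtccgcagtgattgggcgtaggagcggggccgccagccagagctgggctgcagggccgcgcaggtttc
The motifs, searched on both strands over the whole 250 bases, were CACGTG (E-box), TGACGT (a core of the cyclic AMP response element, which ATF factors bind), GTAAACA (bound by forkhead factors such as FOXO), TGANTCA (AP-1) and TGATGCAA (a composite site of ATF4 and C/EBP factors). PMAIP1 held TGACGT, read on the other strand as ACGTCA, as did BAD and 7.10% of all 35116 promoters. BBC3 held CACGTG, found in 6.34% of promoters, and TGANTCA, found in 6.57%. BCL2L11 was the one member with GTAAACA, found in 2.98% of promoters. BAX held CACGTG 4 times. BID had it in 2 of its 5 annotated promoters, whose windows overlap, so that it is the same site in both. No member had TGATGCAA, which 0.772% of promoters held, so PMAIP1 and BBC3 shared none of these motifs. A match is a string of letters and not a measured site. The motifs were chosen after the sequences had been seen.

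The balance of the family was described as the summed FPKM of BCL2, BCL2L1 and MCL1 over that of the other 7 members, a ratio of RNA levels that is no measure of the proteins and is given without a test. It was 2.38, 2.25 and 2.38 in the control and 2.39, 2.56 and 2.66 in the TAX libraries, with means of 2.34 ± 0.0794 and 2.54 ± 0.136 (SD, n = 3). Every TAX library was above every control library, TAX replicate 1 by a small margin. MCL1 alone made up 51.8% to 56% of the summed FPKM of the members. The ratio and the pro-survival sum therefore largely repeat the separation of MCL1 and are no separate result. Of single tested genes, 14.6% were higher in TAX without overlap. The summed pro-survival FPKM was 272 ± 25.0 in control and 317 ± 4.33 in TAX-treated cells without overlap, while the summed pro-apoptotic FPKM was 117 ± 14.4 and 125 ± 6.13 with overlap (SD, n = 3). The ratio of BCL2L1 and MCL1 to the effectors BAX and BAK1 overlapped, at 10.4 ± 1.08 and 10.8 ± 1.26 (SD, n = 3). MCL1 to BCL2L11, a pair in which the first protein binds the second, went from 16.0 ± 1.85 to 23.1 ± 2.12, with 14.2 to 17.9 in control and 21.0 to 25.3 in TAX libraries. These are the tested members with the highest and the lowest log2 fold change, so the gap follows from the choice of pair. It adds nothing to the results of the single genes, neither of which passed an adjusted p under 0.05 (limma). MCL1 to PMAIP1, the pair of MCL1 and the NOXA that marks it for degradation, had 7.34 ± 1.63 and 7.31 ± 1.42 and overlapped. BAX to BCL2L1 had 0.256 ± 0.0431 and 0.257 ± 0.0172 and overlapped as well (SD, n = 3).

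**Figure D4:**
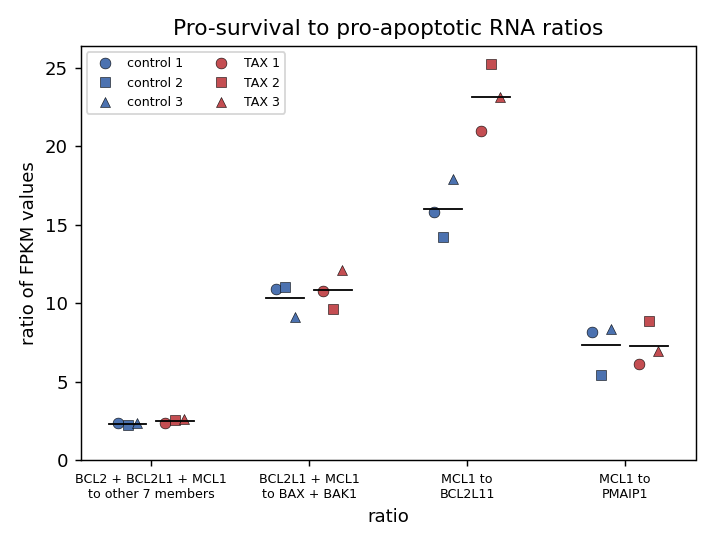
Ratios of FPKM values in each control (blue) and TAX (red) library, with the group mean as a bar and the marker shape for the replicate number. The ratio over all members (2.25 to 2.38 in control, 2.39 to 2.66 in TAX) and MCL1 to BCL2L11 are higher in all TAX libraries, and the other 2 ratios overlap. MCL1 and BCL2L11 are the tested members with the highest and the lowest log2 fold change.

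The family has further genes outside the list, and the largest log2 fold changes of the tested genes of the family, those of BIK and BCL2A1, were among them. All 11 were listed and 7 passed the filter, of which 6 had a log2 fold change above 0 with a median of 0.087. None of the 7 passed an adjusted p under 0.05 (limma), while 2 were higher and 1 lower at an unadjusted p under 0.05, beside 7.73% and 2.41% of all tested genes. BIK, a BH3-only gene on chromosome 22 from 43110748 to 43129712, had 1.90, 1.40 and 1.87 FPKM in the control and 3.55, 2.67 and 2.78 FPKM in the TAX libraries. The groups lay well apart, and the ratio of the means was 1.74. BIK had a log2 fold change of 0.55 (SE 0.11, limma adjusted p = 0.0759, unadjusted p = 0.000454).

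BCL2A1, a pro-survival gene that NF-kB induces, lies on chromosome 15 from 79960889 to 79971446 and had 7.81, 7.51 and 6.99 FPKM in the control and 9.96, 13.5 and 9.87 FPKM in the TAX libraries. TAX replicate 2 was the highest, and no values overlapped. BCL2A1 had a log2 fold change of 0.51 (SE 0.11, limma adjusted p = 0.120, unadjusted p = 0.00110). BMF, a BH3-only gene that motor complexes hold in place, lies on chromosome 15 from 40087890 to 40108892 and had 2.33, 2.26 and 2.28 FPKM in the control and 1.66, 2.097 and 1.80 FPKM in the TAX libraries, all TAX values being lower. Its log2 fold change was -0.21 (SE 0.084, limma adjusted p = 0.445, unadjusted p = 0.0321). BCL2L2, the gene of BCL-W, had 5.79 ± 0.0873 FPKM in the control group against 6.50 ± 0.350 FPKM in the TAX group without overlap (SD over n = 3; limma adjusted p = 0.555), and it shares its locus with the read-through gene BCL2L2-PABPN1. BOK, BCL2L12 and BCL2L13 had log2 fold changes of 0.087, 0.081 and 0.084 with overlap. BCL2L10, HRK, BCL2L14 and BCL2L15 were under the filter, at no more than 0.435 FPKM in any library.

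**Figure D5:**
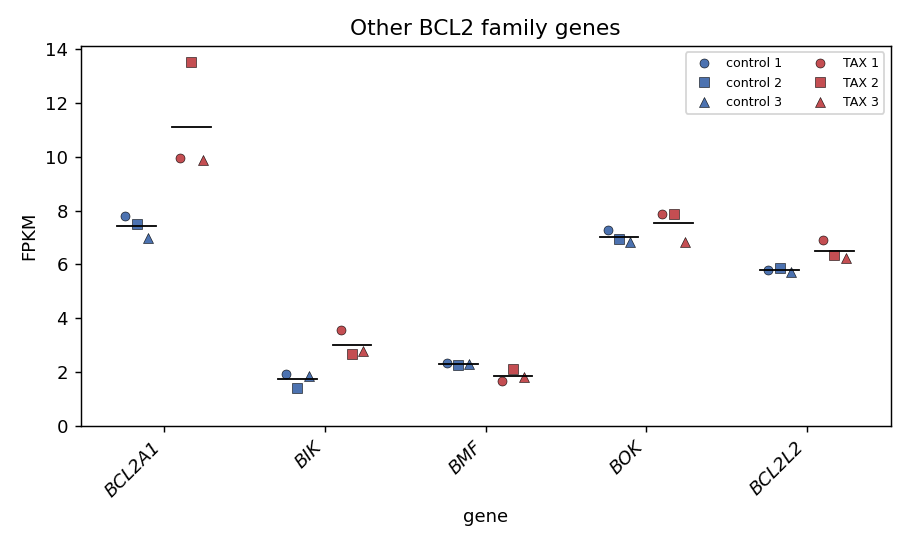
FPKM of 5 genes of the family outside the list in each control (blue) and TAX (red) library, with the group mean as a bar and the marker shape for the replicate number. BCL2A1, BIK and BCL2L2 are higher and BMF is lower in all TAX libraries, while BOK overlaps.

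Downstream of the mitochondria, the 13 genes of the apoptosome, the caspases and their inhibitors all passed the filter, and none passed an adjusted p under 0.05 (limma). Of these 10 had a log2 fold change above 0, with a median of 0.091, and 1 gene was higher at an unadjusted p under 0.05, beside 7.73% of all tested genes. That gene was BIRC5, which encodes survivin, with 52.1 ± 0.559 FPKM in the control group against 59.8 ± 5.28 FPKM in the TAX group (SD over n = 3; limma adjusted p = 0.486), and its unadjusted p stayed under 0.05 in 5 of 13 alternatives, with at most 0.214 in the others. DIABLO, the gene of the IAP antagonist SMAC, had 36.0 ± 2.12 and 38.3 ± 0.746 FPKM (SD, n = 3). Of the 8 partners at the mitochondrial outer membrane and genes of mitochondrial dynamics none had an unadjusted p under 0.05 in limma, and their median log2 fold change was 0.095. VDAC2, a channel that holds BAK1, had 196 ± 17.3 and 211 ± 4.56 FPKM, and VDAC1 had 141 ± 10.4 and 152 ± 6.80 FPKM (SD, n = 3).

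Upstream of BID, 3 of 8 tested genes were higher at an unadjusted p under 0.05 in limma, 0 were lower, and 0 passed an adjusted p under 0.05, beside 7.73% higher and 2.41% lower of all tested genes at the unadjusted level. The adaptor FADD had 28.0, 27.2 and 28.5 FPKM in the control and 32.6, 36.1 and 31.6 FPKM in the TAX libraries, without overlap. FADD had a log2 fold change of 0.25 (SE 0.080, limma adjusted p = 0.326). The TRAIL receptors TNFRSF10A and TNFRSF10B had log2 fold changes of 0.23 and 0.29 (limma adjusted p = 0.373 and 0.435), the first without and the second with overlap. TNFRSF1A, the TNF receptor and with TNFRSF10B the most abundant gene of the list, had 72.6 ± 8.65 and 75.2 ± 3.36 FPKM (SD, n = 3).

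The 19 listed genes for proteins that hold, degrade or phosphorylate the members, such as ubiquitin ligases and deubiquitinases of MCL1 and the adaptors that retain BAD, gave 0 genes at an unadjusted p under 0.05 in limma and a median log2 fold change of 0.077. The most abundant were the 14-3-3 genes YWHAZ, with 445 ± 37.9 and 481 ± 24.4 FPKM, and YWHAE, with 308 ± 7.91 and 306 ± 2.97 FPKM (SD, n = 3). Of 10 tested transcription factors known to act on the members, 1 was higher and 1 lower at an unadjusted p under 0.05 (7.73% and 2.41% of all tested genes) and 0 passed adjusted (limma). NFKB1 had 21.9 ± 3.07 and 26.0 ± 1.63 FPKM with overlap, and FOXO4 had 2.42 ± 0.0818 and 1.92 ± 0.175 FPKM without overlap (SD over n = 3; limma adjusted p = 0.471 and 0.393). STAT3, with ATF4 the most abundant of them, had 67.2 ± 11.95 and 67.3 ± 5.04 FPKM (SD, n = 3).

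BBC3, PMAIP1 and BAX are p53 targets, and 12 other targets were set beside them, 2 of which also stand in the list upstream of BID. Of these 4 were higher and 1 lower at an unadjusted p under 0.05 (7.73% and 2.41% of all tested genes) and 0 passed adjusted (limma), with a median log2 fold change of 0.090. AEN, an apoptosis-related nuclease, had 10.9, 10.8 and 9.66 FPKM in the control and 13.6, 14.96 and 14.5 FPKM in the TAX libraries. AEN had a log2 fold change of 0.42 (SE 0.082, limma adjusted p = 0.0681), and its adjusted p was 0.0352 after quantile normalization and 0.0358 after centring of each library. TP53INP1 had 2.98 ± 0.253 and 2.13 ± 0.282 FPKM without overlap (SD over n = 3; limma adjusted p = 0.212). GADD45A had a log2 fold change of 0.51 (limma adjusted p = 0.408), which was 0.76 with an adjusted p of 0.0403 without control replicate 2.

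Over the 6 libraries, the genes whose log2(FPKM + 1) was most like that of BAD were NFE2L3, GLTP and RIN1, with Pearson's r of 0.996, 0.995 and 0.992. For MCL1 they were TNFRSF10D, SNPH and UBP1, with Pearson's r of 0.997 each. These values describe 6 libraries, 3 of each group, so genes that differ between the groups in the same direction score alike, and 67 genes for BAD and 266 for MCL1 had an r above 0.95. TNFRSF10D, the gene of a TRAIL decoy receptor, had 16.4, 17.7 and 15.8 FPKM in the control and 18.4, 18.3 and 18.6 FPKM in the TAX libraries.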

How the data were processed

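RNA of 6 DU145 cultures, 3 control and 3 TAX-treated, was analysed from 1 table per library, with groups taken from the sample titles. The authors deposited values taken here as FPKM (decimals with unequal sums and MSTRG identifiers, so TPM is not wholly excluded), without counts, and replicates were not pooled. The submitters' processing notes name HISAT2 2.2.0, StringTie 2.1.2 and GRCh38, and the annotation, filters and strand setting are not given in the sources used here. Since depth is unknown, no counting interval is given. At most 12.4% of the log2 ratios of values under 0.03 FPKM between any 2 libraries fell in a bin 0.1 wide.

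From these values log2(FPKM + 1) was fitted with limma 3.58.1 in R 4.3.3 (trend, no covariate, two-sided) for the 12359 genes that reached 1 FPKM in 3 or more libraries, with Benjamini-Hochberg adjustment over all of them. BCL2, below this filter, was added in a second fit. Exact two-sided permutation tests of single genes, whose smallest p is 0.1, were made in SciPy 1.17.1. The fit was tested on simulated data with changes larger than that of any member. The simulation therefore does not show how often changes as small as theirs would be found. Genes were named by rule, which took all members, the listed genes of the family outside the 10, all cell type markers and, of each other list, up to 4 genes with an unadjusted p under 0.05 and the 2 most abundant, and for MCL1 and BAD the 3 genes most like each. The members and lists were chosen with earlier results of these data known. Some listed genes that the rule takes are not reported here. Outside the rule stand DDIT3, SESN2 and GPR137, named after their values were seen. CDKN1A and FOXO3 also stand outside it, and their single values are not given. Positions are from GENCODE 29. Alternatives were another pseudocount (0.1), a lower or no filter, quantile normalization, centring on library medians, no trend, a replicate block and leaving out each library.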

Additional observations from a re-analysis of the deposited data

How the results depend on the processing

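No member passed an adjusted p under 0.05 (limma) in any of the 13 alternatives. At an unadjusted p under 0.05 there were 2 members in the 7 alternatives that kept all libraries and 1 to 3 when 1 library was left out. Of all 12359 tested genes 1253 had such a p in the main fit, and 779 to 1644 when 1 library was left out. With all libraries and the same filter it was 971 (replicate block) to 1497 (centring). A lower filter gave 1601 of 16698 genes, and no filter 1854 of 20280. The 2 members were not always the same. After quantile normalization and after centring they were MCL1, higher, and BCL2L11, lower, and otherwise MCL1 and BAD, both higher. MCL1 had such a p in 10 of the 13 alternatives, BAD in 8 and BCL2L11 in 4, while BCL2L1 had it without control replicate 1 and PMAIP1 without control replicate 2. Of the other genes named for such a p, BIRC5 kept it in 5 of the 13, NFKB1 in 6, BMF in 7, TNFRSF10B and GADD45A in 9, TNFRSF10A in 11, FADD and FOXO4 in 12, and BIK, BCL2A1, AEN and TP53INP1 in 13. The median log2 fold change of the members was 0.086 to 0.20 when 1 library was left out. The direction turned for BCL2 after centring of each library (-0.035) and for BID after quantile normalization (-0.066), after centring (-0.056) and without control replicate 2, control replicate 3 or TAX replicate 2 (-0.0046, -0.083 and -0.065), with a highest value of 0.092 when 1 library was left out. It also turned for TNFRSF1A after quantile normalization (-0.021), after centring (-0.0015) and without control replicate 3 (-0.037, where leaving out another library gave up to 0.13), for STAT3 after quantile normalization (-0.053), after centring (-0.042) and in 3 fits that left out a library (-0.14 to -0.0017, up to 0.10 in the others), for YWHAE without control replicate 2 (0.0071, down to -0.029 in the others) and for DDIT3 without control replicate 1, control replicate 3 or TAX replicate 1 (-0.18 to -0.030, up to 0.60 in the others). The cause was not tested. Of 494 values over 38 genes, CDKN1A and FOXO3 included, 18 turned and 3 passed the threshold, those of AEN and GADD45A given above. The difference of the ratio of pro-survival to pro-apoptotic FPKM, 0.20, was 0.14 to 0.27 when 1 library was left out. For BCL2L1 and MCL1 over BAX and BAK1 alone, whose groups overlap, it was 0.49. That ratio had a control mean of 10.4 instead of 2.34, so the 2 differences are not on the same scale.

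Over all genes the adjusted calls were 59, and 1 with no filter on low values, 95 after quantile normalization, 96 after centring, 26 with the replicate block and 19 to 40 when 1 library was left out. The replicate numbers did not pair the libraries, since the deviations of libraries 1, 2 and 3 from their group means had correlations across genes of -0.12, -0.33 and -0.17, and no library correlated best with its own number. With the replicate block the number of members with an unadjusted p under 0.05 was 2, beside 971 of all 12359 tested genes (limma). With an adjusted p under 0.05 it was 0 (limma), and the median log2 fold change of the members was 0.16.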
